A study of Mus musculus with 18 samples.

Results

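The genes described here are the immunoglobulin gene segments on a whole-transcript array of mouse ileum. The members are 29 of the 41345 probe sets of the table, matched by gene symbol. A probe set is the group of array probes that reports 1 transcript region. Each member carries a single platform symbol that names a kappa variable or joining segment (Igkv, Igkj), a lambda segment (Iglv) or a heavy chain variable, mu or gamma segment (Ighv, Ighm, Ighg). The 29 probe sets carry 20 distinct symbols. The kappa locus gave 16 of them (15 Igkv and Igkj1), the lambda locus 1 (Iglv1) and the heavy chain locus 12 (7 named Ighm, 2 named Ighg3 and 3 Ighv). No probe set whose only symbol was Igkc, Igha, Iglc, Ighj or an Ighd segment with a digit was found. A further name, Ighmbp2, begins with the same letters but belongs to a helicase gene and was set aside. Its log2 difference between T cell and marrow-only mice under vehicle was 0.04 ± 0.08 (SE).

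An antibody is built from heavy chains paired with kappa or lambda light chains. In each developing B cell 1 variable segment is joined to a joining segment (and, in the heavy chain, to a diversity segment between them), so that a B cell and its offspring express mainly 1 combination. The mu constant region (Ighm) gives IgM, and the gamma constant regions, of which Ighg3 is 1, give IgG subclasses. Plasma cells, the antibody-secreting end stage of B cells, hold far more immunoglobulin RNA per cell than other B cells, and in the lamina propria of the ileum most of them secrete IgA. By the RefSeq table the 16 kappa members lie on chromosome 6, the 12 heavy members on chromosome 12 and Iglv1 on chromosome 16.

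The 18 mice were B10.BR recipients, 8 to 12 weeks old, given 11 Gy of total body irradiation and 5000000 marrow cells, depleted of T cells, from C57Bl/6 donors. The T cell arm also received 2000000 purified T cells of the donor strain and, per the labels, developed graft-versus-host disease (GvHD). Each arm had a daily gavage of 150 mg/kg indole-3-carboxaldehyde (ICA), an indole made from tryptophan, or of vehicle (20% DMSO, 40% PEG400 and 2% citric acid), and ileum was taken on day 21. There were 4 marrow-only vehicle mice, 5 marrow-only ICA mice, 4 T cell vehicle mice and 5 T cell ICA mice, with 1 array per mouse. The controls were thus also irradiated and transplanted, no untransplanted mouse was among them, and whether the B lineage cells came from donor or recipient was not measured. Any pair of arrays correlated with r between 0.97 and 0.989 over all probe sets. Of the 29 members, 26 were above a log2 value of 5 in at least 4 arrays. Enterocyte markers fixed in a list averaged 10.08 to 11.45 in every mouse, on the log2 scale. In bulk tissue, fewer cells of a type and less RNA per cell cannot be told apart.

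The first comparison asks how the ileum with GvHD differed from the ileum of marrow-only mice when both had vehicle. Immunoglobulin values were lower in the T cell mice for 27 of the 29 members, and the median log2 difference (T cell minus marrow-only mice) was -1.86, with a range from -3.75 to 0.03. Over all 41345 probe sets the median was 0.00 and 49.4% were lower. At least 2-fold lower were 21 members, against 0.518% of all probe sets. In limma's test with Benjamini-Hochberg adjustment over all probe sets, at an adjusted p under 0.05, 3 of the 29 fell (Igkv1-133, Igkj1 and 1 Ighg3 probe set) and 0 rose, where 0.223% of all probe sets fell and 0.493% changed in either direction. At an unadjusted p under 0.05, 18 members were lower, where 10.2% of all probe sets passed in either direction. In 7 members every T cell mouse was below every marrow-only mouse, against 3.42% of all probe sets.

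**Figure D1:**
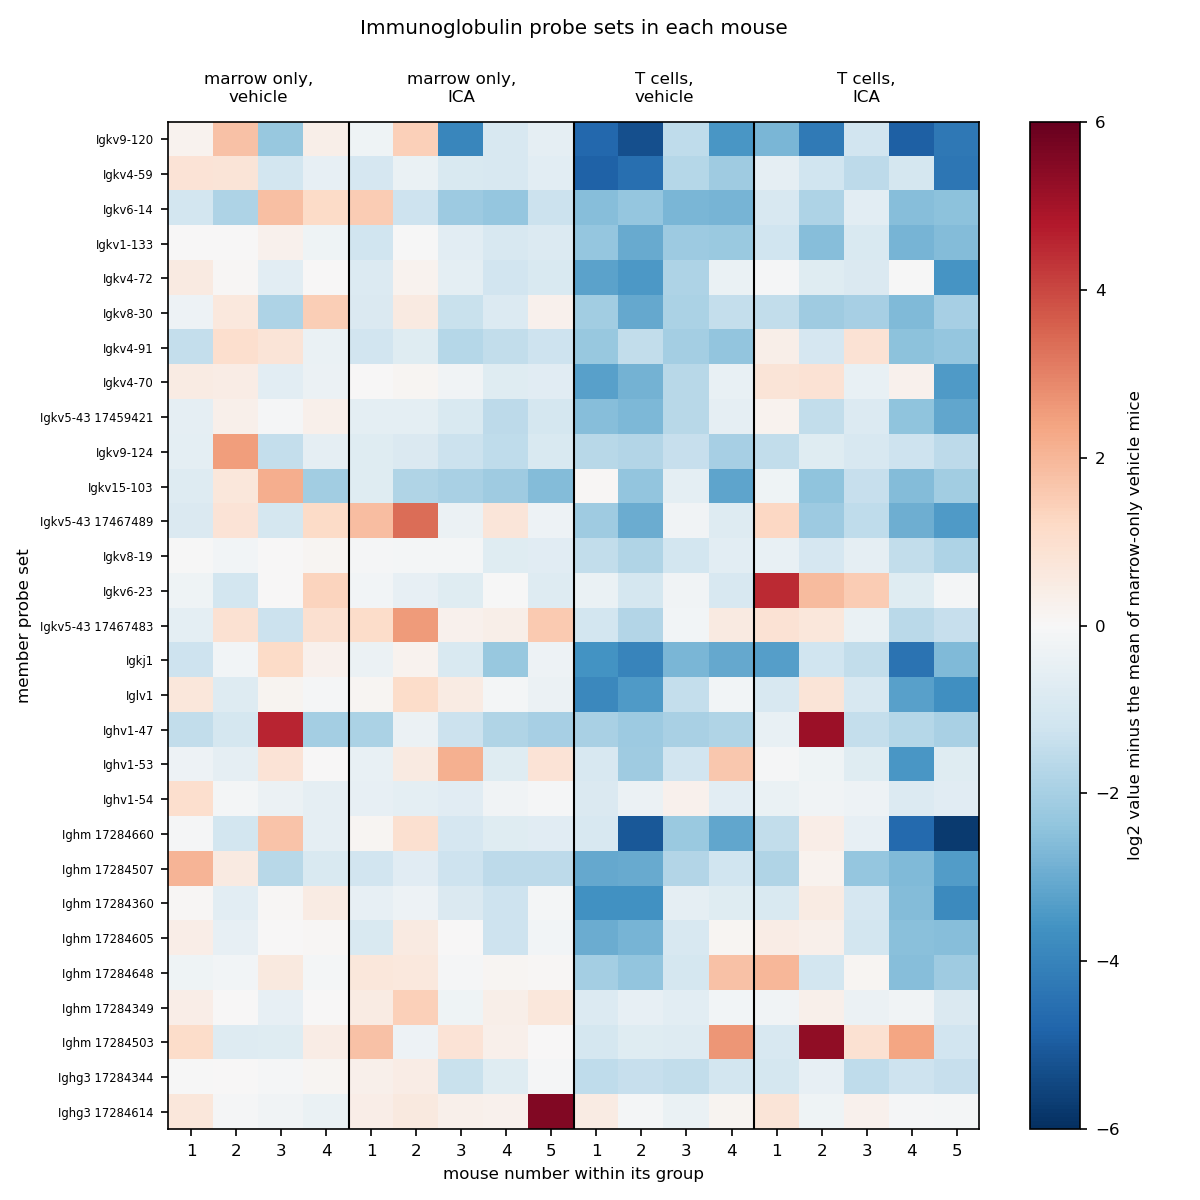
Colour shows the log2 value of each of the 29 member probe sets (rows) in each of the 18 mice (columns) minus the mean of the 4 marrow-only vehicle mice; blue is lower and red is higher, and repeated symbols carry their probe set number. T cell vehicle mice 1, 2 and 3 and T cell ICA mice 4 and 5 are blue in most rows, with a median over the rows of -1.41 or lower. The other T cell mice are paler, with medians from -0.86 to -0.45. Single red cells mark members that stood high in 1 mouse, such as 1 Ighg3 probe set in marrow-only ICA mouse 5.

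Among kappa variable segments, which encode the antigen-binding end of the light chain, all 15 probe sets were lower in the T cell vehicle mice, with a median log2 difference of -2.05. Igkv1-133 had log2 values of 7.70, 7.70, 7.94 and 7.41 in the marrow-only vehicle mice and of 5.38, 4.67, 5.53 and 5.44 in the T cell vehicle mice. The groups were far apart, with the highest T cell mouse below the lowest marrow-only mouse. Igkv1-133 fell by 2.43 ± 0.36 (SE) on the log2 scale, or 5.40-fold, with an adjusted p of 0.00574. It was past the threshold in each of the 18 fits that left out 1 mouse, but not in an ordinary 2-sample test of each probe set, where the adjusted p was 0.174. In that test 0 of all 41345 probe sets passed.

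Igkj1 is the joining segment nearest to the kappa variable genes. Its log2 values were 8.46, 9.51, 10.85 and 9.94 in the marrow-only vehicle mice and 6.11, 5.71, 6.97 and 6.60 in the T cell vehicle mice. The marrow-only mice spread over more than 2 log2 units and still did not overlap with the T cell mice. Igkj1 fell by 3.34 ± 0.64 (SE), or 10.2-fold, with an adjusted p of 0.0246. The adjusted p rose above 0.05 with 1 of 5 mice left out, namely mouse 2 (0.0614), 3 (0.0618) or 4 (0.0931) of the marrow-only mice and mouse 2 (0.09) or 4 (0.0616) of the T cell mice, and the difference then lay between -3.43 and -2.96.

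The other kappa variable segments did not pass the threshold, and their values follow because every member is accounted for. The rule for naming genes picked none of them on this comparison, though it picked some for their level or for another comparison. Igkv8-19 stood at 5.96, 5.83, 6.01 and 6.11 in marrow-only vehicle mice and at 4.49, 4.18, 4.88 and 5.35 in T cell vehicle mice. The groups did not overlap, the difference was -1.25 ± 0.28 (SE), and the adjusted p was 0.0532. Igkv4-59 stood at 8.42, 8.37, 6.52 and 7.12 against 2.76, 3.10, 5.88 and 5.47. Here too no T cell mouse reached a marrow-only mouse, while T cell mice 1 and 2 were more than 2 log2 units below mice 3 and 4; the difference was -3.30 ± 0.74 (SE), with an adjusted p of 0.055. Igkv6-14 and Igkv4-91 were the other 2 Igkv members without overlap, at differences of -2.61 ± 0.79 and -2.05 ± 0.63 (SE), with adjusted p of 0.17 and 0.175.

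The largest difference of any member belonged to Igkv9-120, at -3.75 ± 1.07 (SE) and an adjusted p of 0.142. Its values were 8.52, 10.06, 6.05 and 8.66 in marrow-only vehicle mice and 3.62, 3.06, 6.78 and 4.83 in T cell vehicle mice. The groups overlapped, because marrow-only mouse 3 was below T cell mouse 3. Igkv8-30 differed by -2.13 ± 0.55 (SE), with an adjusted p of 0.0987. Igkv4-72, Igkv4-70, Igkv9-124 and Igkv15-103 differed by -2.22, -2.05, -1.69 and -1.53, with adjusted p between 0.171 and 0.545. Igkv9-124 differed by -0.85 without marrow-only mouse 2, the only high one, and Igkv15-103 by -0.79 without marrow-only mouse 3 and -0.98 without T cell mouse 4. Igkv6-23 differed least among kappa segments with a single probe set, at -0.66 ± 0.76 (SE), and stood at 2.54 to 5.00 in both groups.

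Igkv5-43 was reported by 3 probe sets, which differed by -1.86, -1.53 and -0.62, with adjusted p of 0.158, 0.644 and 0.835. The probe set with the highest mean of all Igkv members (17459421) stood at 11.73, 12.56, 12.21 and 12.58 in marrow-only vehicle mice and at 9.73, 9.58, 10.59 and 11.74 in T cell vehicle mice. T cell mouse 4 lay just above the lowest marrow-only mouse, and the other 3 were lower by more than 1 log2 unit. Across the 18 mice the 3 probe sets correlated with each other with r from 0.62 to 0.85. Variable segments of a family are close in sequence, and how far a probe set also binds its relatives was not tested.

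**Figure D2:**
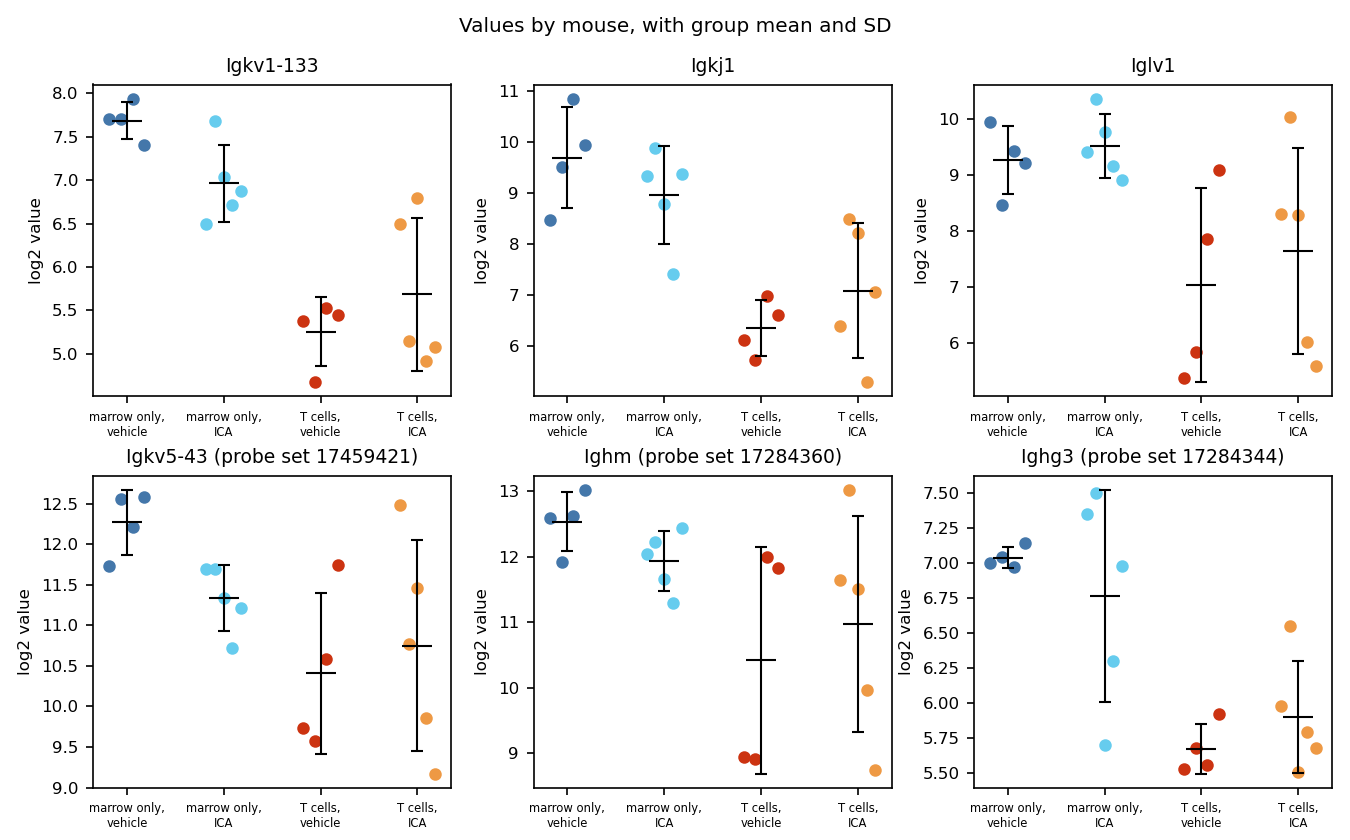
Log2 values of 6 members in each mouse (points) by group, with the group mean (horizontal mark) and SD (bars). For Igkv1-133, Igkj1 and Ighg3 probe set 17284344 the T cell vehicle mice lie below all marrow-only vehicle mice, while for Iglv1, Igkv5-43 and Ighm the T cell mice range from marrow-only levels to 3 or more log2 units lower.

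Iglv1, the only lambda member, encodes the variable end of a lambda light chain, the rarer light chain type in mice. It stood at 9.94, 8.47, 9.43 and 9.21 in marrow-only vehicle mice and at 5.37, 5.84, 7.85 and 9.08 in T cell vehicle mice. T cell mouse 4 lay inside the marrow-only range and the other 3 were below it. The difference was -2.22 ± 0.83 (SE), with an adjusted p of 0.309. The lambda locus is thus represented by a single probe set, beside a kappa variable median of -2.05.

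The heavy chain members were less uniform. Of the 12, 10 were lower in T cell vehicle mice, 1 fell after adjustment and the median log2 difference was -1.14. The 7 probe sets that share the name Ighm did not behave as 1 transcript: their differences were -2.85 ± 1.11, -2.26 ± 0.72, -2.13 ± 0.77, -1.65 ± 0.70, -0.92 ± 0.83, -0.53 ± 0.28 and 0.01 ± 1.09 (SE), with adjusted p between 0.197 and 0.998. Their pairwise correlations across the 18 mice ran from 0.04 to 0.91, with a median of 0.56. Which part of a heavy chain transcript, constant or variable, each of these probe sets reports was not tested.

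The Ighm probe set with the highest values (17284360) stood at 12.60, 11.92, 12.62 and 13.02 in marrow-only vehicle mice and at 8.93, 8.90, 12.00 and 11.83 in T cell vehicle mice. Mice 1 and 2 of the T cell group were about 3 log2 units below mice 3 and 4. Mouse 3 lay just above the lowest marrow-only mouse, and mouse 4 just below it. Probe set 17284660 stood at 9.31, 8.29, 11.12 and 8.88 against 8.42, 4.31, 7.15 and 6.30. It was lowest in T cell mouse 2, and T cell mouse 1 lay above marrow-only mouse 2.

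Ighg3 is the name of the constant region of an IgG subclass; as for Ighm, which part of a heavy chain transcript the probe sets with this name report was not tested. Probe set 17284344 stood at 7.00, 7.04, 6.97 and 7.14 in marrow-only vehicle mice and at 5.53, 5.68, 5.56 and 5.92 in T cell vehicle mice. Both groups were tight and more than 1 log2 unit apart. This probe set fell by 1.37 ± 0.30 (SE), or 2.58-fold, with an adjusted p of 0.0479, close to the threshold. Leaving out 1 mouse ended the call in 13 of 18 fits, with adjusted p up to 0.149, for each of the 8 vehicle mice and for marrow-only ICA mice 4 and 5 and T cell ICA mice 3, 4 and 5; the difference stayed between -1.45 and -1.32.

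The other probe set named Ighg3 (17284614) differed by 0.03 ± 0.80 (SE), and its correlation with the first was 0.24. The heavy chain variable segments Ighv1-47, Ighv1-53 and Ighv1-54 differed by -1.96 ± 1.35, -0.64 ± 0.78 and -0.40 ± 0.29 (SE), with adjusted p of 0.697, 0.86 and 0.713. The difference of Ighv1-47 rested on marrow-only mouse 3, at 9.94 against 3.35 to 4.32 in the other 3, and was -0.44 without it. Ighv1-54 was between 2.25 and 4.13 in all mice, near the lowest values of the table, which limits what it can show.

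How many members passed depended on which probe sets were tested beside them. When only the 23521 probe sets with 1 gene symbol were tested, 6 of the 29 fell (Igkv4-59, Igkv8-19 and Igkv8-30 besides the first 3), where 0.582% of those probe sets fell. An earlier analysis of these data found 3 arrays apart from the rest, those of mouse 3 of the marrow-only vehicle group and of mouse 1 of each ICA group. Without them 3 members fell: Igkv1-133 (adjusted p 0.00507), Igkv8-30 (0.00955) and Igkv4-59 (0.0372). In that fit 199 of 41345 probe sets fell, against 92 in the main fit.

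The same question was asked in the mice given ICA. There 24 of 29 members were lower in the T cell mice, the median log2 difference was -0.81 (-0.01 over all probe sets), and 0 of 29 passed, where 1.39% of all probe sets did. At an unadjusted p under 0.05, 12 members were lower and 1 higher, against 13.5% of all probe sets in either direction. The kappa median was -0.65, the heavy chain median -0.84 and Iglv1 differed by -1.87 ± 0.75 (SE), with an adjusted p of 0.262. In 1 member, Igkv8-30, every T cell mouse was below every marrow-only mouse, against 1.69% of all probe sets.

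Igkv1-133 again had the smallest p. It stood at 6.50, 7.68, 7.04, 6.71 and 6.88 in the marrow-only ICA mice and at 6.49, 5.15, 6.79, 4.91 and 5.08 in the T cell ICA mice. T cell mice 1 and 3 were within or at the edge of the marrow-only range, and mice 2, 4 and 5 were more than 1 log2 unit below it. The difference was -1.28 ± 0.32 (SE), with an adjusted p of 0.0584. It passed when marrow-only mouse 1 (0.0335), T cell mouse 1 (0.0252) or T cell mouse 3 (0.0146) was left out.

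Igkj1 stood at 9.34, 9.89, 8.78, 7.40 and 9.38 in marrow-only ICA mice and at 6.38, 8.48, 8.22, 5.28 and 7.05 in T cell ICA mice. T cell mice 2 and 3 overlapped with marrow-only mouse 4, and the difference was -1.88 ± 0.57 (SE), with an adjusted p of 0.125. Ighg3 probe set 17284344 stood at 7.35, 7.50, 5.70, 6.30 and 6.98 against 5.98, 6.55, 5.51, 5.79 and 5.68. Marrow-only mice 3 and 4 lay among the T cell mice; the difference was -0.86 ± 0.26 (SE), with an adjusted p of 0.128, and of 0.0162 without marrow-only ICA mouse 3.

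Among other kappa segments, the Igkv5-43 probe set 17467489 had the largest difference under ICA, at -2.80 ± 0.84 (SE) with an adjusted p of 0.12. Its values were 8.86, 10.36, 6.65, 7.73 and 6.73 in marrow-only mice and 8.27, 4.84, 5.50, 4.11 and 3.61 in T cell mice. T cell mouse 1 lay inside the marrow-only range and the other 4 lay below it; without that mouse the difference was -3.55, with an adjusted p of 0.0204. Igkv8-30 stood at 6.29, 7.71, 5.84, 6.36 and 7.44 against 5.71, 5.05, 5.19, 4.52 and 5.19, and differed by -1.60 ± 0.49 (SE), with an adjusted p of 0.13. Igkv6-23 differed in the other direction, by 1.85 ± 0.68 (SE), with an adjusted p of 0.219. Its values in T cell ICA mice were 8.15, 5.55, 5.20, 2.94 and 3.53, against 2.89 to 3.64 in the 5 marrow-only ICA mice, and without T cell mouse 1 the difference was 1.08.

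Among the heavy chain members under ICA, 10 of 12 were lower and the 7 Ighm probe sets differed by -2.12 to 0.77, with adjusted p of at least 0.135. Ighv1-53, Ighv1-54 and Ighv1-47 differed by -1.51 ± 0.69, -0.08 ± 0.26 and 1.39 ± 1.21 (SE), with adjusted p of 0.345, 0.939 and 0.689. Without T cell ICA mouse 2 that of Ighv1-47 was 0.08, and without T cell ICA mouse 4 that of Ighv1-53 was -0.91. The Ighm probe set at -2.12 (17284660) was at -1.28 without T cell ICA mouse 5. That at 0.77 (17284503) was at -0.23 without T cell ICA mouse 2. Ighg3 probe set 17284614 differed by -1.31 ± 0.72 (SE), with an adjusted p of 0.454, and by -0.28 without marrow-only ICA mouse 5. Without the 3 arrays that stood apart, Igkv1-133, Igkv5-43 (17467489) and Igkv8-30 fell under ICA, with adjusted p of 0.0171, 0.0263 and 0.0291; 3.3% of all probe sets changed in that fit.

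**Figure D3:**
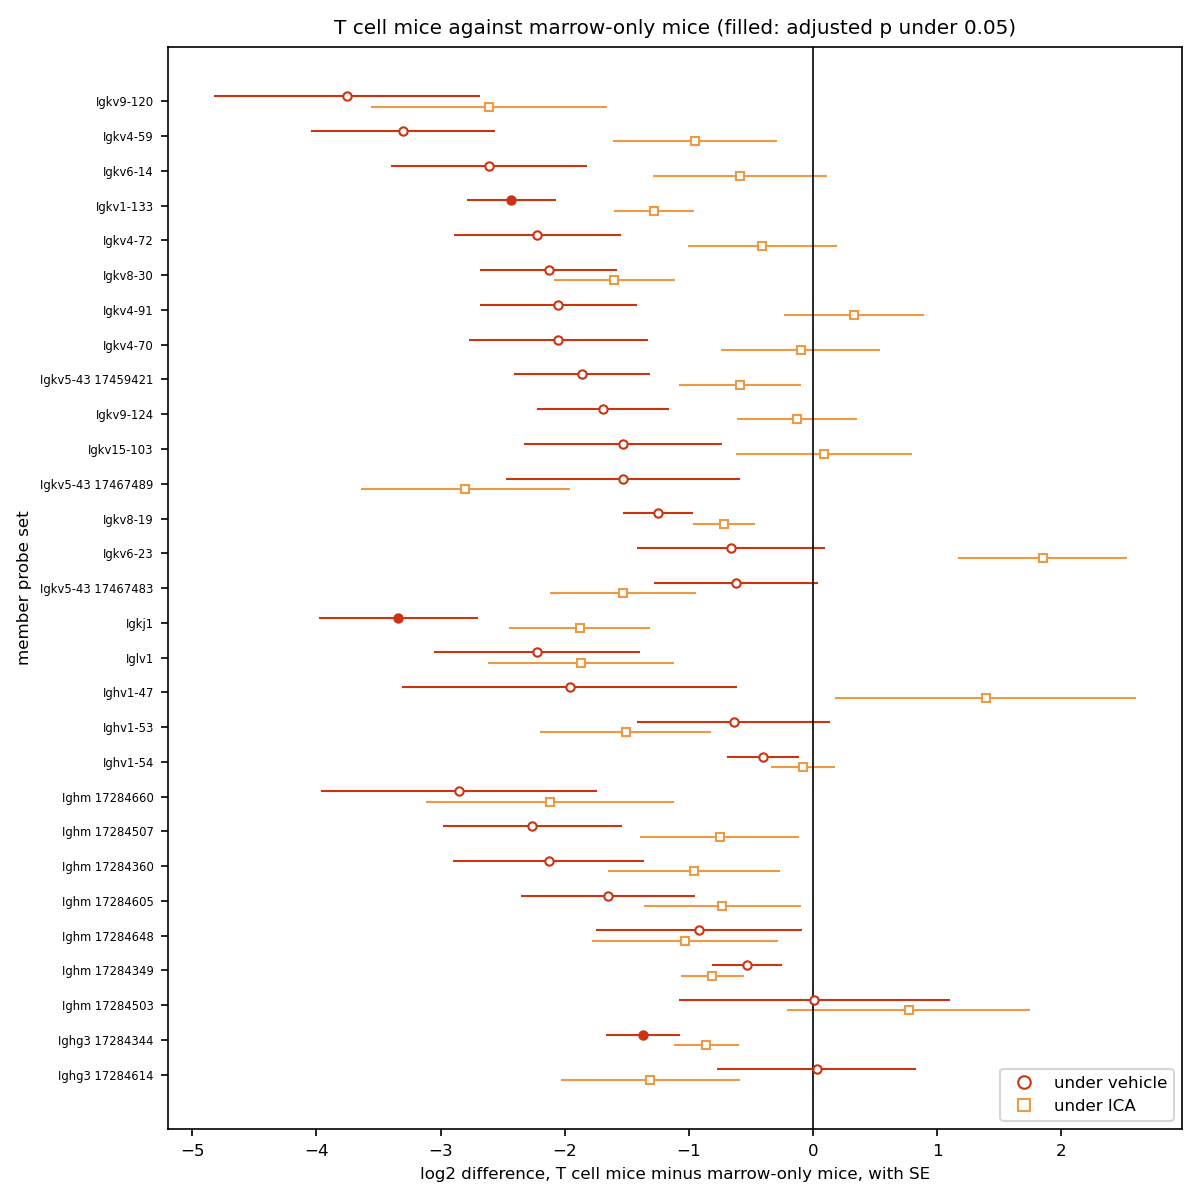
Log2 difference between T cell and marrow-only mice (points, with SE) for each member probe set, under vehicle (circles, 4 against 4 mice) and under ICA (squares, 5 against 5 mice). Filled symbols, at Igkv1-133, Igkj1 and Ighg3 probe set 17284344 under vehicle, passed an adjusted p of 0.05, and the squares lie nearer to 0 than the circles for most kappa members.

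The direct comparison of ICA with vehicle gave smaller differences, none of which passed. In the T cell mice 25 of 29 members were higher under ICA, with a median log2 difference of 0.43 (-0.01 over all probe sets), but 0 passed, where 0.00484% of all probe sets did; 3 (10.3%) had an unadjusted p under 0.05, against 6.78% of all probe sets. These were Igkv6-23 at 2.07 ± 0.72, Igkv4-70 at 1.66 ± 0.68 and Igkv4-59 at 1.57 ± 0.70 (SE), with adjusted p of 0.575, 0.667 and 0.705; Igkv6-23 was at 1.31 without T cell ICA mouse 1. Igkv4-70 stood at 5.85, 6.25, 7.44 and 8.63 in the T cell vehicle mice and at 9.85, 9.94, 8.63, 9.37 and 5.69 in the T cell ICA mice. Of the ICA mice 3 were above every vehicle mouse, mouse 3 equalled the highest of them and mouse 5 was below all of them. Iglv1 was higher by 0.61 ± 0.79 (SE), with a 95% interval from -1.05 to 2.27 and an adjusted p of 0.934.

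In the marrow-only mice the order was the other way round. Under ICA 21 of 29 members were lower, with a median of -0.43 (0.00 over all probe sets), and 0 passed, where 0.0% of all probe sets did; 3 members (10.3%) and 6.12% of all probe sets had an unadjusted p under 0.05. The 3 were Igkv15-103 at -1.84 ± 0.75, Igkv1-133 at -0.72 ± 0.34 and Igkv4-91 at -1.25 ± 0.59 (SE), with adjusted p of 0.79, 0.812 and 0.812. Igkv15-103 stood at 8.36, 9.82, 11.34 and 7.05 under vehicle and at 8.41, 7.35, 7.19, 7.02 and 6.54 under ICA. Vehicle mice 2 and 3 were the high ones, and vehicle mice 1 and 4 lay among the ICA mice; without vehicle mouse 3 the difference was -1.11.

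The interaction, the difference between the ICA effect with and without T cells, was positive for 23 of 29 members, with a median of 1.14 (-0.02 over all probe sets). In limma's test 0 of 29 passed, where 0.0% of all probe sets did, and 5 members (17.2%) and 6.18% of all probe sets had an unadjusted p under 0.05. All 5 were kappa segments: Igkv4-91 at 2.38 ± 0.84, Igkv6-23 at 2.50 ± 1.02, Igkv1-133 at 1.15 ± 0.48, Igkv4-59 at 2.36 ± 0.99 and Igkv9-124 at 1.56 ± 0.72 (SE), with adjusted p between 0.779 and 0.789. Without marrow-only vehicle mouse 2 the value for Igkv9-124 was 0.72. So the smaller kappa differences under ICA were not shown to differ from those under vehicle, and the intervals were wide: for Igkj1 the interaction was 1.47 with a 95% interval from -0.33 to 3.26. Each of these comparisons shares mice with others, so their signs are not separate evidence.

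The spread between mice of a group was large for these genes. The median SD of the members was 0.92 in marrow-only vehicle mice, 0.61 in marrow-only ICA mice, 0.993 in T cell vehicle mice and 1.39 in T cell ICA mice, against 0.153 to 0.19 over all probe sets. An SD above 1 was found for 12, 5, 14 and 19 of 29 members in these groups, where 0.288% to 0.455% of all probe sets had one. Under ICA 23 of 29 members had a larger SD in the T cell than in the marrow-only mice, against 54.3% of all probe sets. Under vehicle this held for 15 of 29, against 46.4% of all probe sets. The pattern differed by locus. The heavy chain median was 0.531 and 0.707 in the marrow-only groups and 1.22 and 1.42 in the T cell groups, and the SD of Iglv1 was 0.613 and 0.569 against 1.74 and 1.84, with the vehicle group first. The kappa median was 1.07 in marrow-only vehicle mice, 0.483 in marrow-only ICA mice, 0.841 in T cell vehicle mice and 1.31 in T cell ICA mice. No test of these SDs was made.

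**Figure D4:**
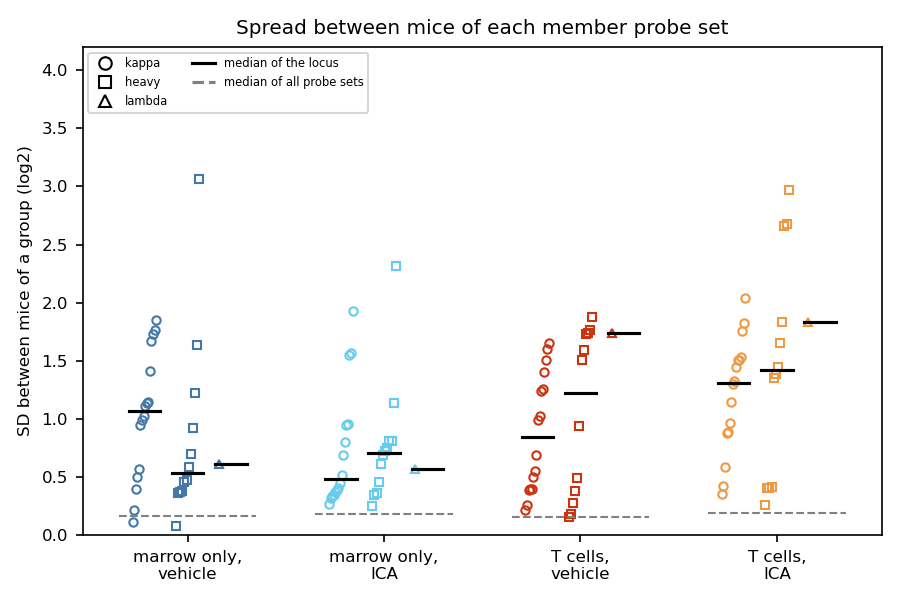
SD between the mice of each group, on the log2 scale, for the kappa (circles), heavy (squares) and lambda (triangles) member probe sets; black lines are medians and dashed grey lines the median over all probe sets. Nearly all members lie above the dashed line in every group, and the heavy chain and lambda medians are higher in both T cell groups.

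The spread followed individual mice in part, and least so for kappa members in marrow-only vehicle mice. The SD of the per-mouse kappa mean was 0.364 and 0.531 in marrow-only vehicle and ICA mice. It was 0.614 and 0.938 in T cell vehicle and ICA mice. The median SDs of the kappa members in these 4 groups were 1.07, 0.483, 0.841 and 1.31. The mean log2 value of the 16 kappa members was 7.23, 8.00, 7.33 and 7.77 in marrow-only vehicle mice, 7.37, 7.72, 6.49, 6.55 and 6.90 in marrow-only ICA mice, 5.21, 4.81, 6.10 and 5.96 in T cell vehicle mice and 7.30, 6.37, 6.82, 5.49 and 5.02 in T cell ICA mice. No T cell vehicle mouse reached a marrow-only mouse, while T cell ICA mouse 1 was among the marrow-only vehicle mice and mice 4 and 5 were among the T cell vehicle mice. The mean of the 12 heavy members was 8.33, 7.68, 8.39 and 7.76 in marrow-only vehicle mice, 7.44 to 8.29 in marrow-only ICA mice, 6.43, 6.02, 6.98 and 7.85 in T cell vehicle mice and 7.70, 8.86, 7.38, 6.36 and 6.00 in T cell ICA mice. The heavy chain mean of T cell vehicle mouse 4 thus lay in the marrow-only range and its kappa mean did not. T cell ICA mouse 2 had the highest heavy chain mean of all. Single members weighed on these means. In T cell ICA mouse 2, Ighm probe set 17284503 was at 11.81 and Ighv1-47 at 10.53. In T cell vehicle mouse 4, Ighm probe set 17284648 was at 10.73 and Ighv1-53 at 11.03. Ighg3 probe set 17284344 and Ighm probe set 17284660 were at 5.92 and 6.30 in that mouse, below all marrow-only vehicle mice.

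Counted by member, 23, 23, 19 and 8 of the 29 were below all 9 marrow-only mice in T cell vehicle mice 1 to 4, and 6, 7, 6, 19 and 24 in T cell ICA mice 1 to 5. Over all probe sets these shares were 10.4% to 18.9%. Of the 29 members 28 had their lowest value of the 18 mice in a T cell mouse, 13 in the vehicle group and 15 in the ICA group, of which 10 were in ICA mouse 5. The highest value lay in a marrow-only mouse for 24 members, in a T cell ICA mouse for 5 (Igkv6-23, Igkv4-70, Ighv1-47 and 2 Ighm probe sets) and in a T cell vehicle mouse for 0.

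Some members were high in a single mouse. The highest mouse exceeded the next by at least 1 log2 unit in 8 of 29 members (27.6%), against 0.281% of all probe sets. Ighg3 probe set 17284614 reached 10.64 in marrow-only ICA mouse 5 and at most 5.86 in the other 17, a gap of 27.6-fold. Igkv9-124 reached 7.03 in marrow-only vehicle mouse 2 and 3.96 in the next mouse, and Ighm probe set 17284503 reached 11.81 in T cell ICA mouse 2 and 9.17 in the next. Igkv6-23 reached 8.15 in T cell ICA mouse 1 and 5.55 in the next. Ighv1-47 was high in 2 mice of different groups, at 9.94 in marrow-only vehicle mouse 3 and 10.53 in T cell ICA mouse 2, and between 3.21 and 5.05 in the other 16. The 8 peaks lay in both marrow-only groups and in the T cell ICA group, and none in a T cell vehicle mouse.

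Members of a locus were correlated across mice, but loosely. Across the 18 mice the pairs of kappa members correlated with a median r of 0.54 (0.37 for deviations from group means), pairs of heavy members with 0.37, and kappa with heavy members with 0.42. The 4 Igkv4 segments were closer, with a median r of 0.69. The kappa mean correlated with the heavy chain mean with r = 0.76 and with Iglv1 with r = 0.78. These values describe 18 arrays that share the group differences and carry no test.

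By the same measure, the genes outside the members most like the mean of the 15 Igkv probe sets, among 23491 probe sets with 1 symbol, were Igh-VS107 (r = 0.94), a heavy chain variable name that the prefixes do not cover, Jchain (0.91), which joins IgA and IgM into polymers, and Pou2af1 (0.89), a B cell transcription coactivator. Slc25a35, Pex6, ccdc198, Olfr884, Amigo1, Clca3a2 and Lce1m followed with r of 0.81 to 0.86. Jchain stood at 9.37, 9.46, 9.56 and 9.43 in marrow-only vehicle mice, 7.25, 6.06, 7.62 and 8.70 in T cell vehicle mice and 10.39, 8.92, 8.45, 7.70 and 5.84 in T cell ICA mice. T cell ICA mouse 1 was the highest of all 18 mice and mouse 5 the lowest. Jchain differed between T cell and marrow-only mice by -2.05 ± 0.65 (SE) under vehicle and by -0.90 ± 0.58 under ICA, with adjusted p of 0.197 and 0.552.

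**Figure D5:**
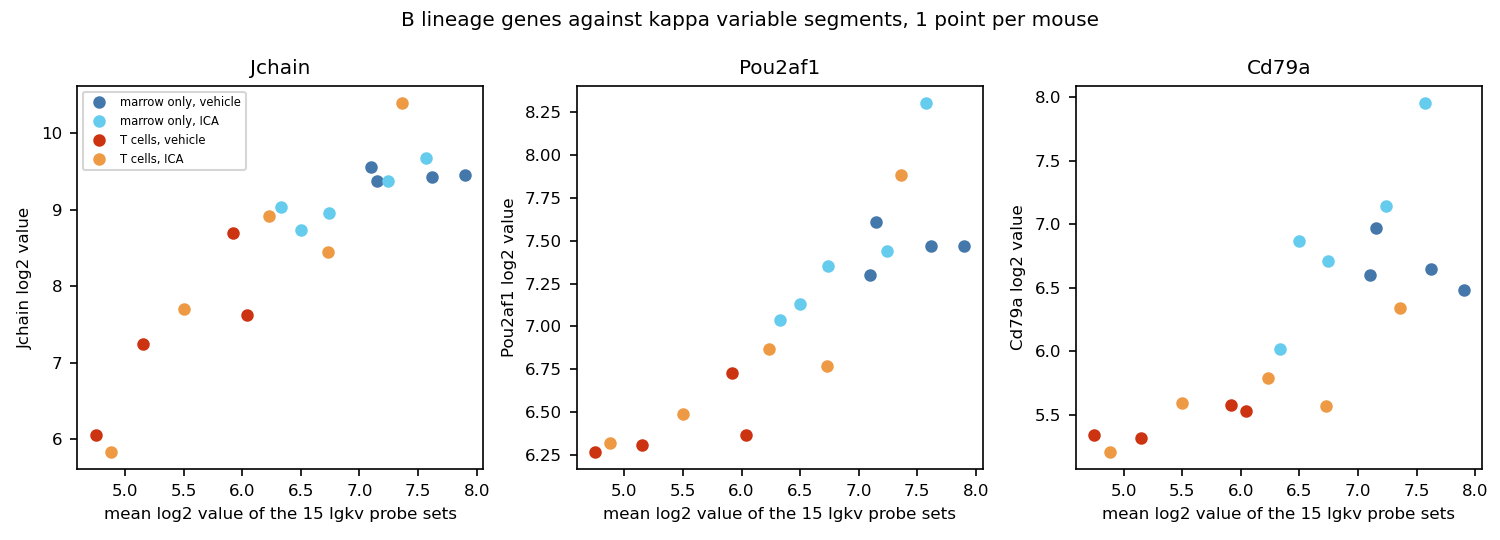
Log2 value of Jchain, Pou2af1 and Cd79a (vertical axes) against the mean log2 value of the 15 Igkv probe sets (horizontal axis), 1 point per mouse, coloured by group. Jchain and Pou2af1 follow the kappa mean across all 18 mice (r = 0.91 and 0.89), with T cell ICA mice spread from the lowest to the highest Jchain value.

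Other genes of the B lineage were read from fixed lists. Beside the counts in these lists, 0.493% of all probe sets passed under vehicle and 1.39% under ICA. Of 10 measured B cell receptor chains and surface partners, 1 fell under vehicle (Fcrla, a B cell Fc receptor-like protein, by 0.58 ± 0.12 (SE), adjusted p 0.0405) and 2 fell under ICA: Cd79a, by 1.23 ± 0.26, and Cd79b, by 0.87 ± 0.17, the signalling partners of surface immunoglobulin, with adjusted p of 0.019 and 0.011. Cd79a also differed by -1.23 ± 0.29 (SE) under vehicle, with an adjusted p of 0.0628. It stood at 6.97, 6.48, 6.60 and 6.65 in marrow-only vehicle mice, 7.14, 7.95, 6.02, 6.87 and 6.71 in marrow-only ICA mice, 5.32, 5.34, 5.53 and 5.58 in T cell vehicle mice and 6.34, 5.79, 5.57, 5.59 and 5.21 in T cell ICA mice. Of the 9 T cell mice only ICA mouse 1 reached the marrow-only range. In this list of 10, 8 genes were lower under vehicle and 10 under ICA, with a median difference of -0.44 in both. The 2 that were higher under vehicle were Btk, at 0.23 ± 0.17, and Blnk, at 0.03 ± 0.14 (SE). Of 7 B cell regulators, Bcl6, needed for germinal centres, fell in both comparisons, by 0.52 ± 0.11 and 0.44 ± 0.10 (SE), with adjusted p of 0.0408 and 0.0263. None of the others passed. Of the 7, 5 were lower under vehicle and 6 under ICA, with median differences of -0.21 and -0.14. Pax5 differed by -0.18 and -0.14 and Bach2 by 0.02 and 0.01.

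Of 14 plasma cell and secretion genes, 12 were lower under vehicle, where none passed, and 13 under ICA, where Xbp1, a transcription factor of secretory cells that epithelium also expresses, fell by 0.35 ± 0.06 (SE), with an adjusted p of 0.0066. The list mean ran from 8.17 to 8.23 in marrow-only vehicle mice, 8.07 to 8.33 in marrow-only ICA mice, 7.65 to 7.93 in T cell vehicle mice and 7.70 to 8.21 in T cell ICA mice. Its correlation with the Igkv mean was 0.88. Of 7 follicle genes, 3 fell under ICA (Cxcl13, the chemokine that draws B cells into follicles, by 0.91 ± 0.16; Cxcr5, its receptor, by 0.68 ± 0.14; and Clu, by 0.77 ± 0.16), with adjusted p of 0.00545, 0.0183 and 0.0179, and none under vehicle. More of all probe sets also passed under ICA (1.39%) than under vehicle (0.493%). None of 12 genes of IgA transport, homing and survival, 5 of the surrogate light chain and pre-B stage or 6 of M cells passed in either comparison. No gene of these lists passed in the ICA or interaction comparisons. Ighd and Ighe, in a list of their own, had no probe set with a single symbol.

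Markers of other cells also moved with the groups. Again 0.493% of all probe sets passed under vehicle and 1.39% under ICA. In the T cell list 3 of 8 genes rose under vehicle (Cd8a by 2.02, Cd8b1 by 1.89, Cd3g by 1.73) and 2 under ICA (Cd8a and Cd8b1). Of the 8, 1 was lower under vehicle (Cd4, at -0.16 ± 0.22 (SE)) and 2 were lower under ICA. Those 2 were Cd4, at -0.71 ± 0.20 (SE) with an adjusted p of 0.0926, and Cd5, at -0.12 ± 0.20. The T cell list mean ran from 6.65 to 7.76 in marrow-only mice and from 7.56 to 8.53 in T cell mice. Of 7 macrophage genes, 2 rose under vehicle and 1 under ICA, with list means of 8.22 to 9.03 in marrow-only and 8.76 to 9.42 in T cell mice. Of 5 smooth muscle genes, 2 rose under ICA, with list means of 10.65 to 10.93 against 10.99 to 11.45. Of 5 mast cell genes, Mcpt1 fell under vehicle, by 2.44 ± 0.50 (SE), with list means of 5.99 to 7.32 in marrow-only and 5.59 to 7.20 in T cell mice. The direction differed between the comparisons. Under vehicle 4 of the 5 were lower in the T cell mice, with a median of -0.65. Under ICA all 5 were higher there, with a median of 0.49 and Mcpt1 at 0.75 ± 0.44 (SE), and 0 passed. All 3 measured Paneth cell genes were lower in the T cell mice in both comparisons, with medians of -1.03 under vehicle and -0.92 under ICA and list means of 11.96 to 12.49 in marrow-only and 10.33 to 12.39 in T cell mice. None of them passed; Mmp7, a protease of Paneth cell granules, came nearest, at -0.92 ± 0.23 (SE) under ICA with an adjusted p of 0.0503. In 6 enterocyte genes nothing passed, with medians of 0.13 and 0.20. The correlations of the T cell, macrophage, smooth muscle and Paneth cell list means with the Igkv mean were -0.59, -0.63, -0.70 and 0.57, and -0.03, -0.09, -0.50 and 0.04 for deviations from group means. For the mast cell and enterocyte lists they were 0.26 and -0.12, and -0.27 and 0.04 for deviations. Their part in the immunoglobulin differences was not tested.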

How the data were processed

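RNA from the ileum of 18 mice was labelled with biotin and hybridised to whole-transcript arrays, per the labels' protocols. Partek, GenomeStudio and RMA are named, without versions, in the submitters' processing notes. The deposited values were taken as log2 because they run from 1.29 to 14.1 with array medians of 6.47 to 6.51; the log base is not given in the sources used here. Mice are biological replicates, per the labels.

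Members were found by symbol in the platform annotation, which gives 1 symbol for 23521 probe sets, several for 1814 and none for 16010; 5 probe sets with several symbols, at least 1 of them of the kind sought, are no members. All 29 members matched RefSeq (GRCm38.p6) by Entrez ID. The members and lists (14 lists, 107 entries, 95 measured) were chosen with earlier results of these data known.

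All 41345 probe sets and 18 arrays entered 1 limma 3.58.1 model (R 4.3.3; group means, trended prior, 14 residual and about 4 prior degrees of freedom), with 5 two-sided comparisons and Benjamini-Hochberg adjustment over all probe sets. "Fell", "rose" and "passed" mean an adjusted p under 0.05. The number of arrays limits the precision. Named are probe sets with the symbols of constant and joining segments, called members, those with the highest mean or the smallest p of a class, list genes that passed, and the 10 most correlated probe sets; other members are described so that each is accounted for. The script was tested on simulated data. For differences of 2 log2 units between 4 T cell and 4 marrow-only vehicle mice, it recovered 98% at the SDs of average probe sets, which are smaller than the members'. Same-numbered mice did not deviate together (2 of 25 pairs with r over 0.1), so the numbers were not taken as pairs. Alternatives are listed with their effects in the closing section.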

Additional observations from a re-analysis of the deposited data

Results flagged for a closer look

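In 116 sets of values, 29 members in 4 groups, 8 held a mouse far from the others of its group by Dixon's criterion, 5 as the highest and 3 as the lowest; chance gives about 5% of sets, or 1 in 20. Ighg3 probe set 17284614 was 10.64 in marrow-only ICA mouse 5, against 5.35 to 5.70 in the other 4. Ighv1-47 was 9.94 in marrow-only vehicle mouse 3, against 3.35 to 4.32, and 10.53 in T cell ICA mouse 2, against 3.44 to 4.92. Ighm probe set 17284503 was 9.17 in T cell vehicle mouse 4, against 5.44 to 5.76, and Igkv6-14 was 7.79 in marrow-only ICA mouse 1, against 3.98 to 5.05. The low values were Igkv4-72 at 5.36 in T cell ICA mouse 5, against 8.06 to 8.89, Igkv4-59 at 3.27 in the same mouse, against 6.03 to 7.07, and Ighv1-53 at 5.91 in T cell ICA mouse 4, against 8.66 to 9.34.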

How the results depend on the processing

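The median difference of the members kept its sign in all 5 comparisons under every alternative that gave one, and with 1 mouse left out it ran from -2.02 to -1.62 (T cells against marrow only, vehicle), -1.03 to -0.40 (the same, ICA), 0.18 to 0.65 (ICA, T cell mice), -0.58 to -0.35 (ICA, marrow-only mice) and 0.63 to 1.37 (interaction). The count of members that fell under vehicle, 3, was 1 with only probe sets above the median mean, 5 with those above 5 in at least 4 arrays, 6 with only 1-symbol probe sets, 6 with 1 probe set per symbol, 6 with array weights, 6 at an adjusted p under 0.1, 0 with an ordinary 2-sample test, and 1 to 5 with 1 mouse left out. The count over all probe sets moved too. It was 92 of 41345 in the main fit, 292 with array weights and 0 with the ordinary test. It was 136 of 20672 above the median mean and 114 of 34993 above 5 in at least 4 arrays. With 1-symbol probe sets it was 137 of 23521, and with 1 probe set per symbol 151 of 22180. With 1 mouse left out it ran from 18 to 139. Under ICA the count was 0 of 29 in the main fit. It was 3 of 29 without the 3 arrays that stood apart and 1 of 29 with 1-symbol probe sets. With 1 probe set per symbol it was 1 of 20. It was 1 with array weights, 1 at an adjusted p under 0.1 and 0 to 2 with 1 mouse left out. Over all 41345 probe sets 397 fell under ICA in the main fit, 658 without the 3 arrays and 517 with array weights. With 1-symbol probe sets 459 of 23521 fell, and with 1 probe set per symbol 460 of 22180. Apart from members left out by a filter, the cause of these changes was not tested. With the mouse number as a replicate block 4 members fell under vehicle, where 87 of 41345 probe sets did. The median of the members was -1.86, and 0 members passed in the other comparisons. Of the 145 differences of single members, 76 were recomputed under the alternatives: all 29 of the first comparison (vehicle mice) and, in the other 4, those of named members or with an unadjusted p under 0.05. Of these 76, 10 took the other sign in some setting, and none of the 10 had passed. With 1 mouse left out they ran from -0.12 to 0.26 (Ighg3 17284614) and -0.87 to 0.38 (Ighm 17284503) for T cells under vehicle, -0.23 to 1.38 (Ighm 17284503) and -0.15 to 0.01 (Ighv1-54) under ICA, -0.90 to 0.34 (Ighv1-53) and -0.25 to 0.13 (Ighv1-54) for ICA in T cell mice, -2.13 to 0.06 (Ighv1-47) and -0.01 to 0.49 (Iglv1) in marrow-only mice, and -0.02 to 0.54 (Ighv1-54) and -0.25 to 1.03 (Iglv1) for the interaction. Without the 3 arrays that stood apart, Ighg3 17284614 was at -0.05 and Ighm 17284503 at -0.24 under vehicle, and Ighv1-47 at 0.17 for ICA in marrow-only mice. Igkv9-124, Ighv1-47 and Ighv1-54 were not above 5 in 4 arrays, so most of their values lie near the low end of the table.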

Other observations

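Another 5 probe sets carried several symbols, at least 1 of them an immunoglobulin segment of the kind described, and so were in no count above. All 5 were lower in T cell than in marrow-only mice under vehicle. The probe set named for Igkv9-124 and Igkv4-70 differed by -1.77 ± 0.40 (SE), with an adjusted p of 0.0556, and its groups did not overlap. The groups did not overlap in the next 3 either, but did in the last. That for Igkv4-53, Igkj1 and Igkv6-23 differed by -1.43 ± 0.49, that for Ighv1-54, Igkv1-135 and Ighm by -2.21 ± 0.71, that for Ighg3, Ighv1-47 and Ighm by -2.37 ± 1.07 and that for Ighv1-72 and Ighm by -0.70 ± 0.41 (SE), with adjusted p of 0.244, 0.205, 0.459 and 0.618. Under ICA the 5 differences were -0.48, -0.69, -0.76, -1.98 and -0.62 in the same order, and none passed.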
